A study of Mus musculus with 48 samples.

Results

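Anti-PD-1 antibody was followed over time in mouse melanomas, with 9 tumors harvested at 6 h, day 1 or day 3 of therapy and 3 tumors at each time. The 9 libraries were chosen by their sample titles out of 48 in the series, and all genes were compared. Each tumor came from 1 wild-type (WT) C57BL/6J mouse that had arrived at 4 weeks of age, had been housed for 2 weeks and carried B16-D5 cells injected under the skin of the flank 8 days before therapy. B16-D5 is a subclone of the B16 mouse melanoma line. All mice of these groups received 250 µg of anti-PD-1 on day 0, with a second dose planned on day 3, and the sources used here do not say whether the day 3 tumors were taken before or after it. The comparison groups were WT tumors of the same times that received 250 µg of control IgG or no treatment, with 3 tumors per group. A group of 3 untreated WT tumors titled 0 h also entered the statistical fit. It added to the estimate of spread and is in no comparison below. In 8 of the 9 tumors the treatment field of the labels named another treatment than the title, and in 6 of 9 the time field named another time. Titles match the columns of the count table and were followed throughout. The titles of the 6 h groups read D0, for day 0, and do not give an hour. They were taken here as 6 h. Every difference below is between libraries titled in that way. No library carries a marker that would check its treatment or time.

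PD-1 is an inhibitory receptor of activated T cells, and the antibody keeps it from binding its ligand PD-L1, which is encoded by Cd274. T cells that are released from this inhibition can secrete interferon-gamma (IFN-γ), which acts through transcription factors such as IRF1 on genes of antigen presentation, guanylate-binding proteins and the chemokines Cxcl9 and Cxcl10. Growing tumors also run short of oxygen, and hypoxia-inducible factors then raise genes of glucose uptake, glycolysis and blood vessel growth. A whole tumor holds melanoma cells, leukocytes, fibroblasts and vessels and, at this site, can hold skin and the muscle beneath it. In such bulk RNA a lower level of a cell type's genes through fewer cells and through less RNA per cell cannot be told apart.

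Summed over genes, the 9 libraries had 29545914 to 45015438 counts (median 38096999). At this depth 3 counts corresponded to 0.0690 to 0.0974 counts scaled to a library of 1e6 (CPM), the unit used for levels below. CPM values were scaled by trimmed mean of M-values (TMM) factors and were not divided by gene length, so levels of different genes are not compared. Melanocyte genes were abundant in every tumor. Dct, an enzyme of pigment synthesis, was between 3851 and 6276 CPM, whereas Ptprc, the leukocyte marker CD45, was between 43 and 192 CPM. Over 14812 genes with at least 1 CPM, the median correlation of log2 levels was 0.959 for the 9 pairs of tumors of the same time and 0.953 for the 27 pairs of different times. The spread between tumors of one time was thus close to that between times. Several libraries stood apart in their tissue markers. All 11 tested hair keratin genes were highest in 6 h replicate 5. Muscle genes were high in 6 h replicates 1 and 5 and in day 1 replicate 4, and keratinocyte genes in 6 h replicates 1 and 5. In day 3 replicate 4, 11 of 12 endothelial genes had their lowest level. Counts on sensory receptor genes, which serve here as a measure of background, ranged from 29.4 to 351 CPM and were highest in day 1 replicate 2.

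No gene passed an adjusted p of 0.05 between day 1 and 6 h among 26848 genes tested with the quasi-likelihood F-test of edgeR (percent called 0), and the smallest adjusted p was 0.670. Between day 3 and 6 h the count was also 0, with a smallest adjusted p above 0.99. At an unadjusted p under 0.05, 1139 genes (4.24%) had a higher and 598 (2.23%) a lower level at day 1, and 381 (1.42%) had a higher and 598 (2.23%) a lower level at day 3. These counts moved with single tumors. At day 1 the higher genes numbered 433 without 6 h replicate 1 and the lower genes 284 without day 1 replicate 2 and 1736 without day 1 replicate 4, and leaving out 6 h replicate 3 or day 1 replicate 5 also moved one of them by more than 1.5 times. At day 3 the higher genes numbered 173 without day 3 replicate 4 and the lower genes 267 without day 3 replicate 3, and the former count also moved past 1.5 times without 6 h replicate 1. The Wald test of DESeq2 called 1 gene higher and 2 lower at day 1, and 2 higher and 29 lower at day 3. Without the filter on low counts, edgeR called 2 genes higher and 46 lower at day 1, and 3 higher and 134 lower at day 3. Of those 48 and 137 genes, 46 and 88 had their highest level in 6 h replicate 5. Both comparisons share the 3 tumors at 6 h. For the 9542 genes with at least 10 CPM the median standard error of a log2 fold change was 0.22, and for all genes tested it was 0.65 at day 1 and 0.62 at day 3, and the fitted coefficient of variation between tumors of one group was 0.671. All fold changes that follow are log2 values with their standard error (SE) from this fit. They missed the threshold, and every p below is unadjusted unless it is said to be adjusted.

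**Figure D1:**
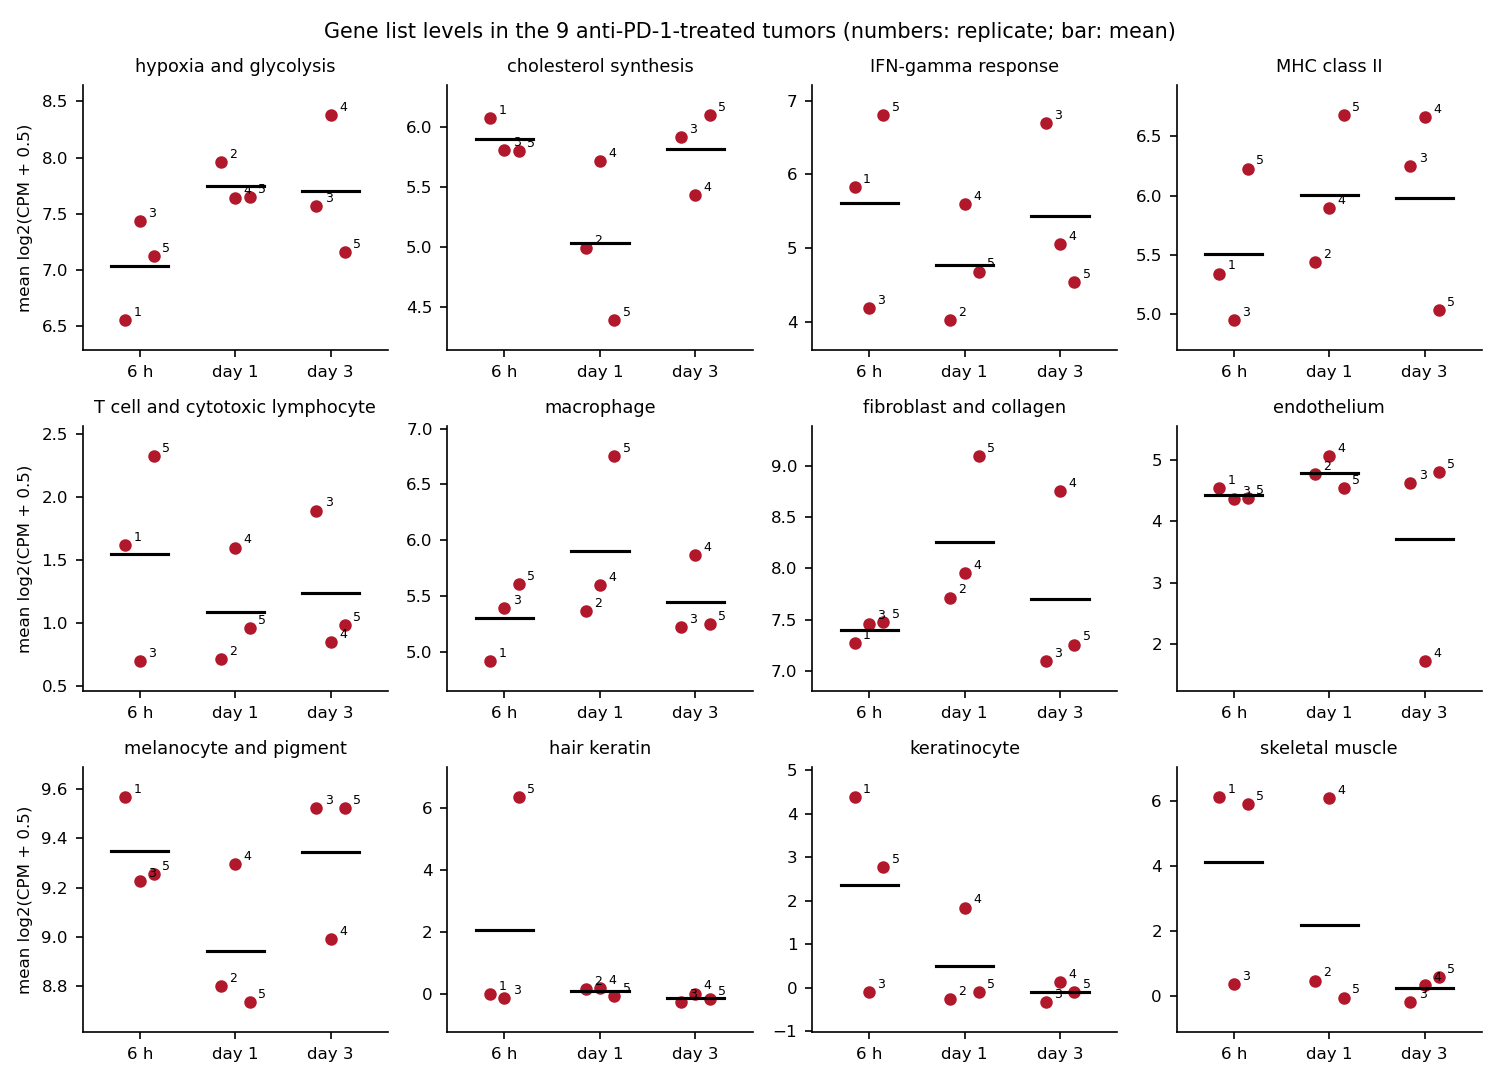
Mean log2(CPM + 0.5) of 12 gene lists in each of the 9 anti-PD-1 tumors, by time, with 1 point per tumor marked by its replicate number and a bar for the mean of 3 tumors. Hypoxia and glycolysis genes lay between 7.64 and 7.96 in the 3 day 1 tumors and between 6.56 and 7.43 in the 6 h tumors, while IFN-γ response genes ranged from 4.19 to 6.80 at 6 h.

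The day 1 genes with the smallest p-values that did not overlap between the groups were of mixed function. Klhl26 (GRCm38 chr8:70450219-70476968, minus strand), a member of the Kelch-like family, had 10.9, 9.16 and 9.69 CPM at 6 h and 21, 14.4 and 17.1 CPM at day 1, with replicates in the order of their numbers here and below (log2 fold change 0.82, SE 0.22, unadjusted p = 0.000987). Acvr2b, a type II receptor for activins, had 3.88, 4.83 and 3.66 CPM at 6 h and 9.94, 6.63 and 7.71 CPM at day 1 (log2 fold change 0.97, SE 0.27, unadjusted p = 0.00133). For both genes the lowest day 1 tumor was replicate 4. The naming rule required every day 1 tumor to lie above every tumor at 6 h. The other named genes with higher levels at day 1 were Sipa1, a GTPase-activating protein for Rap (log2 fold change 0.69, SE 0.19), Plcb3, a phospholipase C (0.54, SE 0.15), Pex5, the import receptor of peroxisomes (0.66, SE 0.19), the calmodulin-dependent kinase gene Camk2g (0.62, SE 0.18), Zfyve1 (0.63, SE 0.19) and the zinc finger gene Zfp217 (0.45, SE 0.13). Pex5 had 18.2, 21.8 and 17.1 CPM at day 3, again above its 13.2, 14 and 11.9 CPM at 6 h, whereas Plcb3 had 43.8, 51.6 and 50.4 CPM at day 3 and overlapped with its 6 h levels. In all, groups did not overlap for 1683 genes that were higher at day 1 (6.27%) and for 810 that were lower (3.02%).

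Among genes with lower levels at day 1, Helq, a DNA helicase, had 24.2, 18 and 24.9 CPM at 6 h and 12.7, 16.4 and 11.4 CPM at day 1 (log2 fold change −0.73, SE 0.22, unadjusted p = 0.00279). Nsrp1, a splicing factor of nuclear speckles, had 59.4, 73.7 and 62.9 CPM at 6 h and 39.9, 51.3 and 48.6 CPM at day 1 (log2 fold change −0.49, SE 0.15, unadjusted p = 0.00408). Ccne2, the cyclin E2 that acts at entry into S phase, had 21.3, 25.1 and 19 CPM and 9.87, 17 and 12.4 CPM (log2 fold change −0.74, SE 0.25, unadjusted p = 0.00698). The groups did not overlap for any of the 3 genes, which the naming rule required. Pusl1, a pseudouridine synthase-like gene, and Cox17, a copper chaperone of cytochrome c oxidase, were lower by smaller margins in CPM, with log2 fold changes of −0.83 (SE 0.27) and −0.64 (SE 0.22). The remaining pair that the naming rule gave, Fam83c and S100a3, was highest in 6 h replicate 5, the tumor with hair keratins. Fam83c had 0.23, 0.314 and 9.49 CPM at 6 h and no count in the 3 day 1 tumors, so that no fold is given, and S100a3, a calcium-binding protein of the hair cuticle, had 0.204, 0.627 and 10 CPM at 6 h and 0.0649, 0 and 0.0501 CPM at day 1.

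Genes of hypoxia and glycolysis were higher at day 1 than at 6 h. The list holds 17 genes after an older name of Car9 is counted once, and all 17 had a positive log2 fold change, a sign held by 52.8% of all genes. In 13 of 17 all day 1 tumors exceeded all 6 h tumors (6.27% of all genes), and 3 of 17 reached an unadjusted p under 0.05 (4.24% of all genes). Their median log2 fold change was 0.73, against 0.04 for all genes tested. Car9 (chr4:43506966-43513729, plus strand), the carbonic anhydrase that exports acid from hypoxic cells, had 36.5, 105 and 86.1 CPM at 6 h and 242, 124 and 204 CPM at day 1 (log2 fold change 1.33, SE 0.60, unadjusted p = 0.036). Vegfa, the main growth factor of blood vessels, had 164, 406 and 259 CPM at 6 h and 787, 422 and 445 CPM at day 1 (log2 fold change 0.998, SE 0.52, unadjusted p = 0.0644). For Vegfa the lowest day 1 tumor was only slightly above 6 h replicate 3, which had the highest levels of both genes at that time. Slc2a1, the glucose transporter GLUT1, had 59.3, 113 and 100 CPM at 6 h and 175, 163 and 175 CPM at day 1 (log2 fold change 0.92, SE 0.45, unadjusted p = 0.0523). Car9, Vegfa and Slc2a1 were picked from the list after their values were seen. The 3 members with the highest CPM, which are glycolytic enzymes, had smaller log2 fold changes. Aldoa had a log2 fold change of 0.23 (SE 0.24), Eno1 of 0.19 (SE 0.35) and Ldha of 0.25 (SE 0.24), and the sign for Eno1 turned when replicate number entered the fit as a block (−0.075). Leaving out 1 day 1 tumor moved these values to as little as 0.063 for Aldoa, 0.083 for Eno1 and 0.16 for Ldha. The list's median lay between 0.33, with that block, and 0.89 over the alternatives tried. The tumor with the lowest hypoxia levels was 6 h replicate 1, which held the lowest level for 14 of 17 genes, and without it the median was 0.44.

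At day 3 all 17 hypoxia genes were again above their 6 h mean (50.6% of all genes had a positive log2 fold change), with a median log2 fold change of 0.74, but the 3 tumors were not alike. Only 3 of 17 genes had non-overlapping groups (5.83% of all genes), and 5 of 17 had an unadjusted p under 0.05 (1.42% of all genes). Car9 had 138, 322 and 91.3 CPM, Vegfa 351, 879.6 and 268 CPM and Slc2a1 134, 310.5 and 106 CPM in the 3 day 3 tumors, with log2 fold changes of 1.28 (SE 0.60), 0.85 (SE 0.51) and 1.02 (SE 0.45), which were 0.60, 0.16 and 0.40 without day 3 replicate 4. Day 3 replicate 4 held the highest level of all 9 tumors for 16 of 17 genes, and replicate 5 was within the range of the 6 h tumors for each of these 3 genes. Without replicate 4 the median was 0.31. Replicate 4 was also the tumor with the lowest endothelial levels, and Cdh5, the cadherin of endothelial junctions, had 112, 0.617 and 143 CPM at day 3, against 82.4 to 169 CPM in the 6 tumors of the earlier times. Cdh5 was marked after its values were seen and is also among the 3 most abundant genes of its list. The part of this tumor's makeup in the hypoxia levels was not tested. The glycolytic enzymes had log2 fold changes of 0.26 for Aldoa (SE 0.24), 0.51 for Eno1 (SE 0.35) and 0.44 for Ldha (SE 0.24), and those of Aldoa and Ldha were 0.12 and 0.22 without replicate 4.

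**Figure D2:**
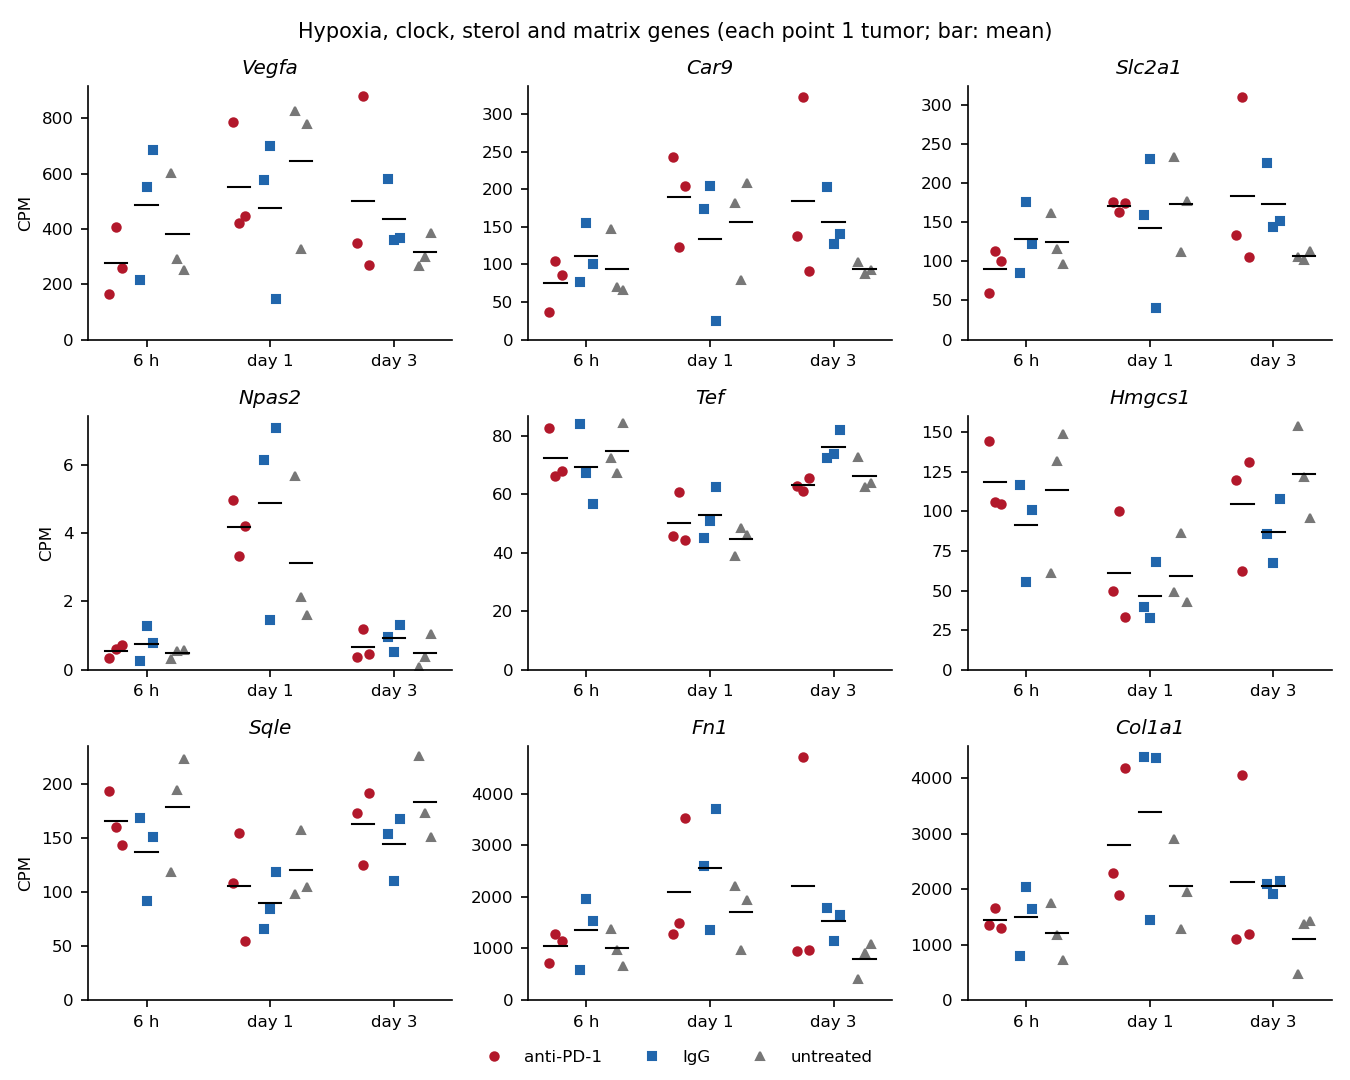
CPM of 9 genes by time in the tumors of the anti-PD-1 (red circles), IgG (blue squares) and untreated (grey triangles) arms, with 1 point per tumor and a bar for the mean of 3 tumors. With anti-PD-1, Npas2 was between 3.34 and 4.97 CPM in the 3 day 1 tumors and at most 1.21 CPM in the other 6, while Vegfa at day 3 spread from 268 to 880 CPM.

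Hypoxia-inducible factors bind DNA at a core of ACGTG, which is also part of the E-box CACGTG. In the 250 bases before the first listed start of a gene, on either strand, ACGTG occurred in 16.6% of 32851 promoters of RefSeq (GRCm38.p6) and in 10 of the 16 hypoxia genes that could be matched (62.5%). The promoter of Pgk1, which encodes phosphoglycerate kinase, is shown because it carries the core 2 times. Pgk1 itself had 537, 595 and 524 CPM at 6 h, 671, 712 and 619 CPM at day 1 and 699.5, 962 and 629 CPM at day 3, and all later tumors exceeded all 6 h tumors. The window is chrX:106186850-106187099 on the plus strand, written 5′ to 3′ and ending at the base before the start, with ACGTG or its reverse complement CACGT in capitals. A match of letters describes the sequence and says nothing of binding. Pgk1 was picked for this promoter after its values were seen.
Pgk1: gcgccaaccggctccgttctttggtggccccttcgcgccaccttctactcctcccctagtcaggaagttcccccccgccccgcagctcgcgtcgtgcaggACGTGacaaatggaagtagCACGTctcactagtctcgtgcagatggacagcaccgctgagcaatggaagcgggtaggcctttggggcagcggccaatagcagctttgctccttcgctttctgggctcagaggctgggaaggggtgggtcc

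Fibroblast and matrix genes were also higher at day 1. All 14 had a positive log2 fold change (52.8% of all genes) and 9 of 14 had non-overlapping groups (6.27% of all genes). Their median log2 fold change was 1.01, and 2 of 14 had an unadjusted p under 0.05 (4.24% of all genes). Col1a1, a chain of type I collagen, had 1352, 1668 and 1290.3 CPM at 6 h and 2282, 1900.0 and 4188 CPM at day 1 (log2 fold change 0.96, SE 0.58, unadjusted p = 0.11). Fn1, which encodes fibronectin, had 715, 1284 and 1134 CPM and 1280.2, 1484 and 3531 CPM (log2 fold change 1.01, SE 0.57, unadjusted p = 0.0893), and Sparc, a matrix-binding glycoprotein, had 963, 992 and 899 CPM and 1009, 1347 and 1682 CPM (log2 fold change 0.50, SE 0.28, unadjusted p = 0.0855). Day 1 replicate 5 had the highest level of the 3 in each case and held the highest level of all 9 tumors for 10 of the 14 genes. Without it the median was 0.44, and the log2 fold changes were 0.54 for Col1a1, 0.40 for Fn1 and 0.31 for Sparc. At day 3 all 14 genes were above 6 h in the mean (50.6% of all genes had a positive log2 fold change), with a median of 0.52. None had non-overlapping groups, where 5.83% of all genes were higher without overlap. Without day 3 replicate 4 the median was −0.26. Col1a1 had 1108, 4061 and 1193 CPM in the day 3 tumors.

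Macrophage genes were likewise highest in day 1 replicate 5. At day 1, 12 of 14 had a positive log2 fold change (52.8% of all genes) and 3 of 14 an unadjusted p under 0.05 (4.24% of all genes), but groups overlapped for all of them, where 6.27% of all genes were higher without overlap, and the median of 0.85 went to 0.23 without that tumor, which held the highest level for 13 of 14. Lyz2, the lysozyme of myeloid cells, had 52.5, 73 and 115 CPM at 6 h, 95.5, 104 and 412 CPM at day 1 and 82.4, 252 and 69.7 CPM at day 3. Mrc1, the mannose receptor CD206, had 86.1, 123 and 142 CPM at 6 h and 134, 142 and 309 CPM at day 1. Apoe, an apolipoprotein that macrophages secrete, differed less, with 791, 799 and 845 CPM and 695, 752 and 928 CPM. Fcγ receptors bind the stem of IgG antibodies on myeloid cells. Their genes and those of complement had a positive sign in 11 of 12 at day 1 (52.8% of all genes), with a median of 0.83, which was 0.17 without the same tumor. Fcgr3, an activating Fcγ receptor picked after its values were seen, had 19.7, 24.9 and 39.5 CPM at 6 h and 33.4, 31.5 and 102 CPM at day 1. C3, the central complement component, had 82, 124 and 217 CPM and 152, 193 and 618 CPM. Ptprc had 58.2, 45.4 and 108 CPM at 6 h, 60.9, 87.2 and 192 CPM at day 1 and 63, 114 and 43 CPM at day 3, and its highest level was in day 1 replicate 5 as well. Ptprc was named after its values were seen. The part of leukocyte content in these lists was not tested.

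Cholesterol synthesis genes were lower at day 1 in all 12 members, a sign held by 45.6% of all genes. Groups did not overlap for 5 of 12 (3.02% of all genes), 5 of 12 had an unadjusted p under 0.05 (2.23% of all genes), and the median log2 fold change was −0.80. These genes are switched on together by SREBP transcription factors when cells lack sterols. Hmgcs1, the synthase that makes HMG-CoA, had 144, 106 and 104 CPM at 6 h and 49.7, 100.1 and 33.3 CPM at day 1 (log2 fold change −0.95, SE 0.40, unadjusted p = 0.0262). It was picked after its values were seen. Sqle, the squalene epoxidase of the pathway, had 194, 160.1 and 144 CPM and 109, 155 and 54.5 CPM (log2 fold change −0.65, SE 0.36, unadjusted p = 0.0868). For Hmgcs1 the 100.1 CPM of day 1 replicate 4 lay just under the lowest 6 h tumor, whereas replicate 5 held the lowest level of all 9 tumors for 11 of 12 genes. Without replicate 4 the median was −1.25 and without replicate 5 it was −0.50, and the log2 fold change of Hmgcs1 was −1.51 without the former and that of Sqle −1.02 and −0.33. At day 3 the list was near its 6 h level, with a median of −0.04 and 119.6, 62.6 and 131 CPM for Hmgcs1.

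SREBP proteins bind the sterol regulatory element, searched here as TCACNCCAC on both strands of the 250 bases before the first start. It occurred in 1.05% of the RefSeq promoters and in 1 of the 6 cholesterol genes that could be matched (16.7%). That gene was Hmgcs1, whose window (GRCm38.p6 chr13:119690101-119690350, plus strand, 5′ to 3′) is shown with the element in capitals.
Hmgcs1: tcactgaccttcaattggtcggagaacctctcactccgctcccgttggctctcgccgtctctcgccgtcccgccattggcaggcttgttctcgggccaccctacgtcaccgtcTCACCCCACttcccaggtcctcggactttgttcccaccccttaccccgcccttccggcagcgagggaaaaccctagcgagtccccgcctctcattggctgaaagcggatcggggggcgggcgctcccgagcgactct

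Pigment and cell cycle genes were slightly lower at day 1. All 12 melanocyte genes had a negative log2 fold change (45.6% of all genes), with a median of −0.32, 3 of 12 with non-overlapping groups (3.02% of all genes) and 2 of 12 at an unadjusted p under 0.05 (2.23% of all genes). Without day 1 replicate 4 the median was −0.50. Dct had a log2 fold change of −0.32 (SE 0.19), Tyrp1, another pigment enzyme, of −0.22 (SE 0.26) and Gpnmb of −0.18 (SE 0.18), the last pair at −0.080 and −0.075 without 6 h replicate 1. Mitf, the master transcription factor of melanocytes, had 996, 847 and 734 CPM at 6 h, 519.6, 698 and 495 CPM at day 1 and 775, 715 and 985 CPM at day 3, and the day 1 tumors were the lowest 3 of 9. Mlana, a melanosome antigen, had 833, 624 and 663 CPM, 342, 574 and 355 CPM and 705, 459.6 and 633 CPM at the 3 times. Mitf and Mlana are the pair with an unadjusted p under 0.05 and were picked for it. Of the genes of G2/M and mitosis, 17 of 18 had a negative sign (45.6% of all genes) with a median of −0.24, and of S phase genes 14 of 15 with −0.35. Leaving out 1 tumor moved these medians between −0.51 and −0.14 for mitosis and between −0.56 and −0.20 for S phase, with the lowest value of both without day 1 replicate 4. Mki67, the proliferation marker Ki-67, had 1711, 1545 and 1196 CPM at 6 h and 919, 1589 and 936 CPM at day 1, with replicate 4 at the level of the 6 h tumors. At day 3 the medians of melanocyte, mitosis and S phase genes were 0.04, −0.06 and −0.10, and each took the other sign without one or another tumor. As a mean log2 level the melanocyte list stood at 9.57, 9.23 and 9.26 at 6 h and 8.80, 9.30 and 8.74 at day 1. Its lowest tumor was day 1 replicate 5, in which fibroblast and macrophage levels were highest, and the part of melanoma cell content was not tested.

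Of the clock genes, 4 had an unadjusted p under 0.05 at day 1, in opposite directions. Npas2 (chr1:39193731-39363236, plus strand) encodes a paralog of CLOCK. It had 0.332, 0.596 and 0.715 CPM at 6 h, 4.97, 3.34 and 4.21 CPM at day 1 and 0.368, 1.21 and 0.457 CPM at day 3 (log2 fold change 2.92, SE 0.88, unadjusted p = 0.00263). The 3 day 1 tumors exceeded the other 6 by more than 2-fold. Arntl, which encodes the clock activator BMAL1, had 12.8, 21.6 and 16.4 CPM at 6 h and 26.1, 19.8 and 31.6 CPM at day 1 (log2 fold change 0.61, SE 0.25, unadjusted p = 0.0201), with overlap. Tef and Hlf, transcription factors that carry the output of the clock, were on the other side. Tef (chr15:81802421-81826863, plus strand) had 82.6, 66.3 and 68.1 CPM at 6 h, 45.7, 60.7 and 44.3 CPM at day 1 and 63, 61.1 and 65.5 CPM at day 3 (log2 fold change −0.53, SE 0.17, unadjusted p = 0.0046), and Hlf had 5.26, 3.61 and 3.03 CPM, 1.27, 2.14 and 1.3 CPM and 2.9, 2.66 and 4.54 CPM (log2 fold change −1.34, SE 0.50, unadjusted p = 0.0122). Per1, a repressor of the clock, had 172, 164 and 157 CPM at 6 h and 149, 100.0 and 98.8 CPM at day 1 (log2 fold change −0.50, SE 0.38, unadjusted p = 0.192). Over the 18 clock genes, 2 had a higher and 2 a lower level at an unadjusted p under 0.05 (4.24% and 2.23% of all genes), 1 was higher and 4 lower without overlap (6.27% and 3.02% of all genes), and the median was −0.15. Npas2, Arntl and Hlf were picked after their values were seen. In both control arms Npas2 was also higher and Tef lower in the mean at day 1, with overlap for Tef under IgG alone. Npas2 had 0.244, 1.27 and 0.772 CPM at 6 h and 6.15, 1.45 and 7.07 CPM at day 1 under IgG, and 0.314, 0.542 and 0.59 CPM and 5.66, 2.13 and 1.6 CPM in untreated tumors, and Tef had 84.2, 67.3 and 56.6 CPM and 45.2, 51 and 62.6 CPM under IgG and 72.5, 67.2 and 84.5 CPM and 39.1, 48.5 and 46.2 CPM untreated. The clock hour of each harvest is not given in the sources used here.

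IFN-γ response genes were spread widely at 6 h, and day 1 lay lower in the mean. Of 28 tested genes 27 had a negative log2 fold change at day 1 (45.6% of all genes), and the median was −1.09. None had non-overlapping groups, where 3.02% of all genes were lower without overlap. In the lower direction 1 had an unadjusted p under 0.05 (2.23% of all genes). As a mean log2 level the list stood at 5.82, 4.19 and 6.80 at 6 h, 4.02, 5.60 and 4.68 at day 1 and 6.70, 5.05 and 4.53 at day 3. The high tumors were 6 h replicates 1 and 5, day 1 replicate 4 and day 3 replicate 3, and each time held at least 1 tumor below 5. Replicate 5 at 6 h held the highest level for 20 of 28 genes, and without it the median at day 1 was −0.26. That tumor also held the highest hair keratin level, and the part of skin in its IFN-γ levels was not tested.

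Irf1 (chr11:53770014-53778374, plus strand), a transcription factor induced by IFN-γ, had 114, 37.2 and 246 CPM at 6 h, 24.3, 69.7 and 41.4 CPM at day 1 and 214, 59 and 38.6 CPM at day 3. Its log2 fold change was −1.55 at day 1 (SE 0.80, unadjusted p = 0.0652) and −0.35 at day 3 (SE 0.79), the day 1 value was −0.74 without 6 h replicate 5, and the day 3 value was −1.44 without day 3 replicate 3 and 0.46 without 6 h replicate 5. For Irf1 6 h replicate 3 was within the range of day 1. Of the chemokines that draw T cells, Cxcl10 (chr5:92346638-92348889, minus strand) had 565, 149.7 and 994 CPM at 6 h, 41.1, 265 and 63 CPM at day 1 and 553, 111 and 208 CPM at day 3, which gave the smallest p of the list at day 1 (log2 fold change −2.21, SE 0.75, unadjusted p = 0.0065). Its groups overlapped through day 1 replicate 4, and its log2 fold change was −3.45 without that tumor. Its adjusted p in edgeR was 0.0124 without the filter on low counts and above 0.05 under every other alternative. Cxcl9 had 129, 18 and 267 CPM, 10.1, 80 and 14 CPM and 155, 37.6 and 22 CPM, with log2 fold changes of −1.99 (SE 1.20) at day 1 and −0.95 (SE 1.17) at day 3. Without 6 h replicate 5 these were −1.08 and −0.038, without day 1 replicate 4 the former was −3.52, and without day 3 replicate 3 the latter was −2.21. Gbp2, a guanylate-binding protein, and Iigp1, an immunity-related GTPase, had log2 fold changes of −1.58 (SE 1.18) and −2.08 (SE 1.11) at day 1, which were −0.51 and −0.88 without 6 h replicate 5 and −2.61 and −3.22 without day 1 replicate 4. Gbp2 was named after its values were seen. Cd274 had 45.6, 17.7 and 130.0 CPM at 6 h, 12.3, 40.4 and 22.8 CPM at day 1 and 88.1, 29.1 and 18.2 CPM at day 3. Nos2, which encodes the inducible nitric oxide synthase iNOS, had 1.61, 1.47 and 3.77 CPM, 3.57, 5.09 and 1.48 CPM and 13.6, 1.29 and 1.62 CPM, and its highest level was in day 3 replicate 3, the tumor with the highest IFN-γ level at that time.

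**Figure D3:**
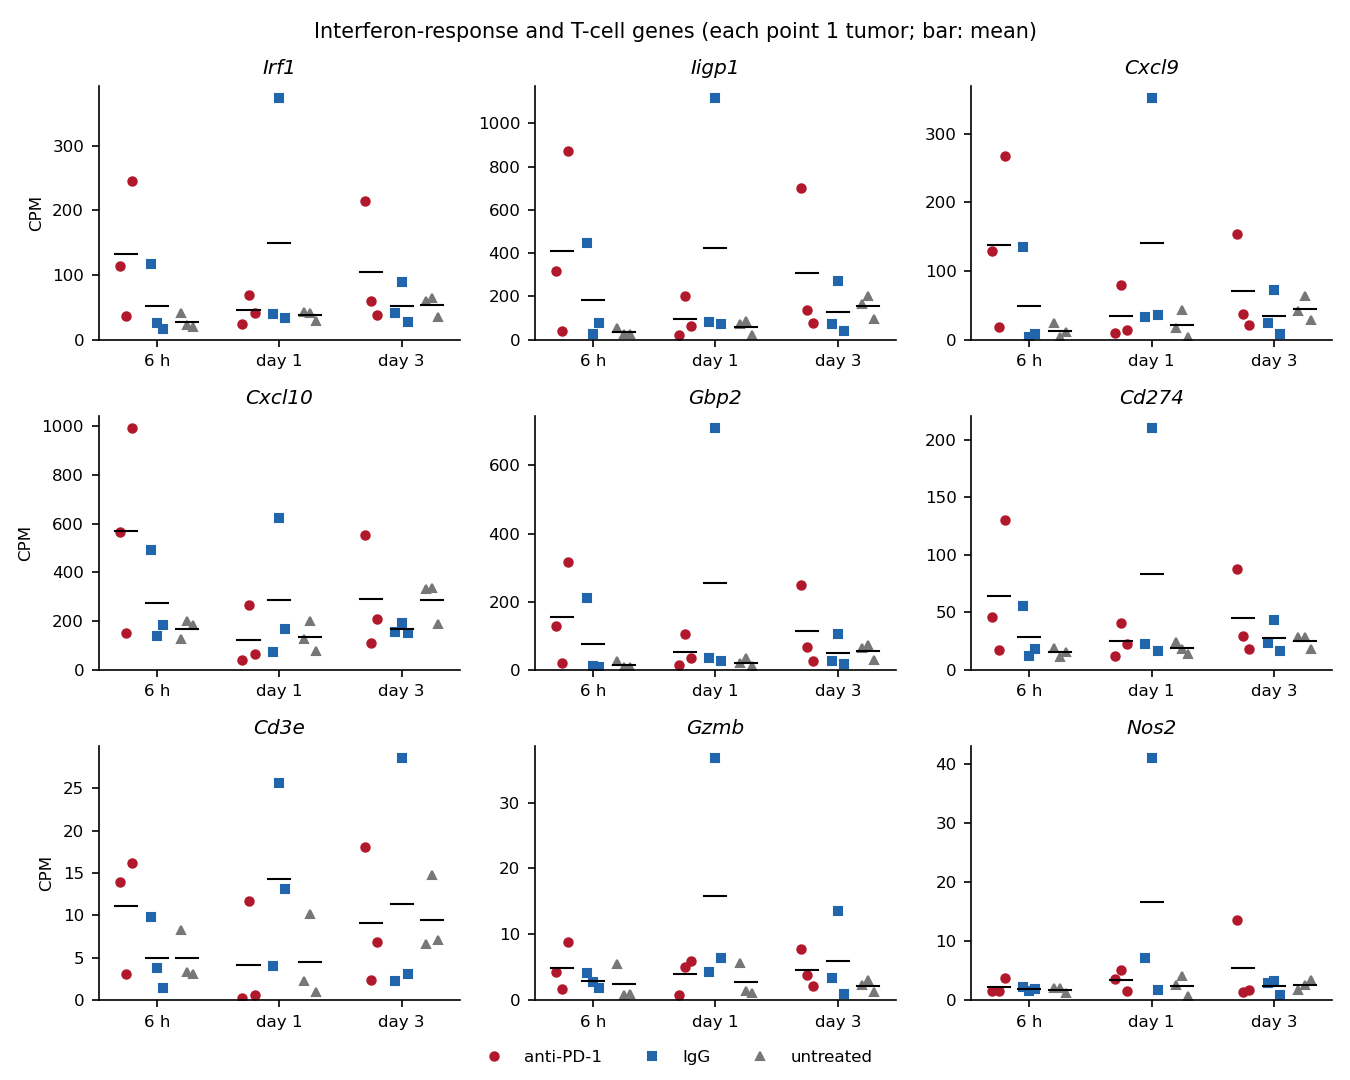
CPM of 9 interferon and T cell genes by time in the tumors of the anti-PD-1 (red circles), IgG (blue squares) and untreated (grey triangles) arms, with 1 point per tumor and a bar for the mean of 3 tumors. In each panel the 3 times overlap with anti-PD-1, as for Irf1, which was between 37.2 and 246 CPM at 6 h, between 24.3 and 69.7 CPM at day 1 and between 38.6 and 214 CPM at day 3.

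Many genes induced by IFN-γ carry a gamma-activated site, searched here as TTCNNNGAA. It occurred on either strand in the 250 bases before the first start in 7.02% of RefSeq promoters and in 8 of the 20 IFN-γ response genes that could be matched (40%). The Irf1 window is shown because this gene carries 1 such site and has a named place in the pathway (GRCm38.p6 chr11:53769764-53770013, plus strand, 5′ to 3′, the site in capitals, first of the starts listed).
Irf1: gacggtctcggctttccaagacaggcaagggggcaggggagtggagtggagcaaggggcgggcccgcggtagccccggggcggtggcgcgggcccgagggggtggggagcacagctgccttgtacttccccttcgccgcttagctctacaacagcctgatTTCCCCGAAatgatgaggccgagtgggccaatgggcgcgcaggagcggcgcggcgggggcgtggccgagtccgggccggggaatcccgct

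Ifng, the gene of IFN-γ itself, was near its detection limit in some tumors and well above it in others. It had 1.58, 0 and 3.72 CPM at 6 h, 0, 0.762 and 0 CPM at day 1 and 2.62, 0.449 and 0.0254 CPM at day 3. Each tumor with an Ifng level of at least 0.7 CPM was also one of the 4 with the highest IFN-γ response levels. Ifnb1, the gene of interferon beta, had a count in only 1 of the 9 tumors, day 1 replicate 5 with 0.175 CPM, and was not tested. A count of 0 in a tumor allows up to 0.0690 to 0.0974 CPM, depending on its depth, and this covers counting error only.

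T cell and cytotoxic genes were mostly lower in the mean at day 1, with large spread. At day 1, 20 of 23 had a negative log2 fold change (45.6% of all genes), with a median of −0.59. None had non-overlapping groups, where 3.02% of all genes were lower without overlap. In the lower direction 1 had an unadjusted p under 0.05 (2.23% of all genes). Without 6 h replicate 5, which held the highest level for 13 of 23, the median was −0.06. At day 3, 18 of 23 had a negative sign (46.9% of all genes) with a median of −0.38, which turned to 0.091 without 6 h replicate 5 and was −1.06 without day 3 replicate 3. Cd3e, a chain of the T cell receptor complex, had 14, 3.07 and 16.2 CPM at 6 h, 0.292, 11.6 and 0.551 CPM at day 1 and 18, 2.33 and 6.9 CPM at day 3. Cd8a, the co-receptor of cytotoxic T cells, had 0.92, 0.439 and 3.66 CPM, 0.649, 1.6 and 0 CPM and 3.17, 0.337 and 1.42 CPM at the 3 times. The 4 tumors with the highest Cd3e were the 4 with the highest IFN-γ response levels. Gzmb, a protease of killer cells, had 4.24, 1.66 and 8.75 CPM at 6 h, 0.812, 5.01 and 5.91 CPM at day 1 and 7.75, 3.73 and 2.16 CPM at day 3. Prf1, the pore-forming perforin, had 4.04, 1.79 and 5.4 CPM, 2.53, 4.55 and 5.13 CPM and 6.53, 3.9 and 1.52 CPM. The median log2 fold change of 10 checkpoint and costimulatory receptors was −0.63 at day 1 and −0.75 at day 3. Without 6 h replicate 5 these medians were −0.15 and −0.30, and the lowest values were −1.10 without 6 h replicate 3 and −1.26 without day 3 replicate 3. Pdcd1, which encodes the target PD-1, had 0.434, 0.753 and 0.915 CPM, 0.39, 1.01 and 0.576 CPM and 1.17, 0.224 and 0.254 CPM at the 3 times, with overlap throughout. Tnfrsf9, the costimulatory receptor 4-1BB, was higher at day 1, unlike 8 of the 10, with 12.3, 44.7 and 37.2 CPM at 6 h, 128, 58.3 and 85 CPM at day 1 and 49.9, 133 and 26.3 CPM at day 3, and its groups at 6 h and day 1 did not overlap. Its lowest level was in 6 h replicate 1 and its highest in day 3 replicate 4, as for most hypoxia genes.

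MHC class II genes overlapped between 6 h and the later times, and the medians of MHC class I and type I interferon genes changed sign with single tumors. MHC class I genes had medians of −0.32 at day 1 and 0.08 at day 3. With 1 tumor left out these lay between −0.64 and 0.13 and between −0.32 and 0.57. All 7 MHC class II genes had a positive log2 fold change at day 1 and day 3 (52.8% and 50.6% of all genes), with medians of 0.55 and 0.57. Groups overlapped in every gene, where 6.27% and 5.83% of all genes were higher without overlap. The day 1 median was 0.02 without day 1 replicate 5 and the day 3 median 0.15 without day 3 replicate 4. Cd74, the invariant chain of class II molecules, had 691, 464 and 1277 CPM at 6 h, 551, 990.0 and 1876 CPM at day 1 and 1248, 1843 and 509.9 CPM at day 3. Type I interferon-stimulated genes had medians of −0.21 and −0.17, with 18 of 31 and 26 of 31 below 0 (45.6% and 46.9% of all genes). Bst2, which encodes the antiviral membrane protein tetherin, had 611, 429.7 and 589 CPM, 388, 539 and 480.3 CPM and 606, 448 and 415 CPM. Without 6 h replicate 5 both medians turned positive, to 0.28 and 0.34.

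The genes named for day 3 by the smallest p without overlap were of mixed function on the higher side. Ndufa4l2, a mitochondrial protein that hypoxia-inducible factors raise, had 15.9, 13.1 and 13.8 CPM at 6 h, 24.1, 27.1 and 27.3 CPM at day 1 and 24.9, 78 and 22.4 CPM at day 3 (log2 fold change 1.55, SE 0.43, unadjusted p = 0.00146). Its adjusted p in edgeR was 0.00882 without the filter on low counts and above 0.05 under every other alternative. Without day 3 replicate 4 its log2 fold change was 0.72. Timp1, an inhibitor of matrix metalloproteinases, had 21.1, 18.1 and 20.4 CPM at 6 h, 20.2, 34.1 and 30.1 CPM at day 1 and 39.4, 58.5 and 26.4 CPM at day 3 (log2 fold change 1.06, SE 0.33, unadjusted p = 0.00316). Day 3 replicate 4 was the highest tumor for both genes, and replicate 5 the lowest of day 3. Dusp1, a phosphatase that shuts off MAP kinases, had 21.3, 25.2 and 28.5 CPM at 6 h, 29.6, 33.8 and 48.7 CPM at day 1 and 36.9, 58.4 and 31.1 CPM at day 3 (log2 fold change 0.75, SE 0.25, unadjusted p = 0.00648). Ephx1, the microsomal epoxide hydrolase, had 78.4, 89.6 and 89.4 CPM, 102, 122 and 130.0 CPM and 119, 179 and 102 CPM (log2 fold change 0.64, SE 0.19, unadjusted p = 0.00271). For Ndufa4l2, Dusp1 and Ephx1 the day 1 tumors already exceeded all 6 h tumors. Unc119b, a lipid-binding trafficking protein, overlapped at day 1 but not at day 3, with 29.5, 23 and 23.8 CPM at 6 h, 24.6, 28.5 and 28.9 CPM at day 1 and 34.8, 43.8 and 33.1 CPM at day 3 (log2 fold change 0.55, SE 0.16, unadjusted p = 0.00179). Without day 3 replicate 4 the log2 fold changes of Dusp1 and Ephx1 were 0.44 and 0.36. The others were Cyth3, an exchange factor for Arf (0.42, SE 0.14), Cdrt4 (1.95, SE 0.64) and the nuclear receptor coactivator Pnrc1 (0.58, SE 0.19), which was at 0.31 without day 3 replicate 4. Groups did not overlap for 1566 genes that were higher (5.83%) and 902 that were lower (3.36%) at day 3.

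Of the genes named on the lower side at day 3, several are genes of muscle and skin, which were high in 6 h replicates 1 and 5. Smyd1, a methyltransferase of muscle, had 5.95, 0.188 and 3.46 CPM at 6 h, 0, 3.56 and 0.25 CPM at day 1 and 0.046, 0 and 0 CPM at day 3, too few counts for a fold. Nrap, an anchoring protein of muscle fibres, had 26.1, 1.6 and 36.6 CPM, 2.7, 24.7 and 2.6 CPM and 0.667, 0.645 and 0.406 CPM (log2 fold change −5.22, SE 1.68, unadjusted p = 0.00456). Esrp1, a splicing regulator of epithelia, had 3.35, 0.659 and 8.69 CPM, 0.585, 1.7 and 0.275 CPM and 0.092, 0 and 0.0508 CPM (log2 fold change −6.33, SE 2.04, unadjusted p = 0.00475), and Foxn1, a transcription factor of hair follicles, had 0.383, 1 and 7.52 CPM, 0.487, 0.0491 and 0.275 CPM and 0, 0.14 and 0.0254 CPM (log2 fold change −5.71, SE 1.89, unadjusted p = 0.00573). In each of these 4 genes at least 1 tumor at 6 h was at 1.6 CPM or less. For Esrp1 and Foxn1 the day 3 tumors were near or below the level of 3 counts, so the size of their folds is poorly determined. Alpk2, Tenm2 and Cpm had log2 fold changes of −5.34, −4.92 and −2.86 (SE 1.46, 1.37 and 0.98), and S100a3 had 0, 0.0841 and 0 CPM at day 3. All 4 were highest in 6 h replicate 5, without which the log2 fold change of Cpm was −0.72 and that of Foxn1 −3.61. Without the filter on low counts Alpk2 reached an adjusted p of 0.00699 and Tenm2 of 0.00173 in edgeR, and both also passed in DESeq2.

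Muscle, keratinocyte and hair keratin genes differed by large factors between tumors of one time. Ttn, which encodes the giant muscle protein titin, had 1652, 13.3 and 1552 CPM at 6 h, 15.2, 1658 and 5.58 CPM at day 1 and 9.17, 7.32 and 15.6 CPM at day 3, with log2 fold changes of −0.94 (SE 2.03) and −6.65 (SE 2.59). The day 1 value was −6.70 without day 1 replicate 4 and 0.19 with replicate number as a block. Myh4, a fast myosin heavy chain, had 325, 0.753 and 203 CPM, 2.63, 453 and 0.326 CPM and 0, 0.785 and 0.533 CPM. Krt5, a keratin of basal keratinocytes, had 35.3, 0 and 39.9 CPM, 0, 7.4 and 0 CPM and 0, 0.337 and 0 CPM. In each case 2 tumors at 6 h and day 1 replicate 4 were high and all day 3 tumors were low. Tchh, trichohyalin of the hair follicle, had 1.41, 0.533 and 2501 CPM at 6 h and at most 2.55 CPM in the 6 later tumors. Its log2 fold change of −8.76 at day 1 (SE 2.50) became 0.97 without 6 h replicate 5, and that of −9.73 at day 3 (SE 2.61) became 0.015. Krt71, a hair keratin, had 0, 0.188 and 264 CPM at 6 h and 0.909, 0.0491 and 0 CPM at day 1, and its log2 fold change of −8.19 (SE 2.62) became 1.75 without that tumor. As a mean log2 level, muscle stood at 6.10, 0.37 and 5.88 at 6 h, 0.48, 6.07 and −0.05 at day 1 and −0.17, 0.33 and 0.58 at day 3. The hair list stood at 0.01, −0.12 and 6.35, 0.17, 0.22 and −0.06 and −0.23, 0.03 and −0.14. At day 3, 13 of 14 muscle genes, 10 of 12 keratinocyte genes and 9 of 11 hair genes had an unadjusted p under 0.05 in the lower direction (2.23% of all genes). Tchh was picked after its values were seen. The part of skin and muscle in the RNA of each tumor was not tested further.

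**Figure D4:**
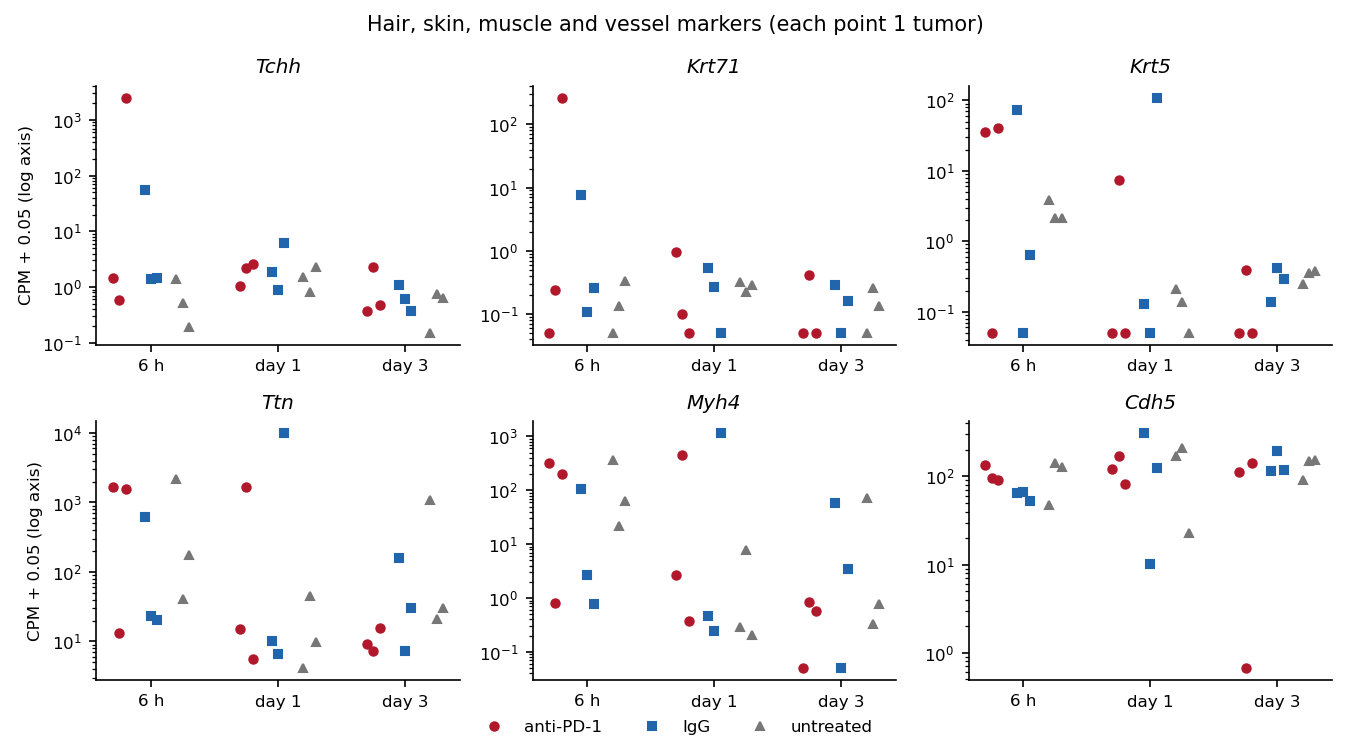
CPM of 6 markers of hair, skin, muscle and endothelium by time in the tumors of the anti-PD-1 (red circles), IgG (blue squares) and untreated (grey triangles) arms, on a log axis of CPM plus 0.05, with 1 point per tumor. With anti-PD-1, single tumors stood far from the others of their time, as for Tchh in 1 tumor at 6 h, Ttn in 2 tumors at 6 h and 1 at day 1, and Cdh5, which was at 0.617 CPM in 1 tumor at day 3.

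Between day 3 and day 1, which leaves the 6 h tumors aside, no gene passed the test either. At an adjusted p under 0.05 the percent called was 0, with a smallest adjusted p of 0.784. An unadjusted p under 0.05 was reached by 382 genes with a higher level (1.42%) and by 840 with a lower level (3.13%) at day 3, and the Wald test of DESeq2 called 2 higher and 15 lower. The counts at an unadjusted p were 138 and 1843 higher genes without day 1 replicate 2 and replicate 4 and 239 lower genes without day 3 replicate 3, and leaving out day 3 replicate 5 also moved both counts past 1.5 times. All 12 cholesterol genes and all 12 melanocyte genes were higher at day 3 than at day 1, with medians of 0.74 and 0.42 (45.5% of all genes had a positive sign). Of the fibroblast genes 12 of 14 were lower, with a median of −0.48 (52.8% of all genes had a negative sign). All 28 IFN-γ response genes were higher, with a median of 0.82 and no gene without overlap. Groups did not overlap for 1046 genes that were higher (3.9%) and 1164 that were lower (4.34%). Among the named genes, the transcription factor gene Zic5 had 18.8, 19.5 and 13 CPM at day 1 and 24.9, 21.4 and 36.2 CPM at day 3 (log2 fold change 0.69, SE 0.21, unadjusted p = 0.00303), and the log2 fold change of Zic5 was 0.44 without day 3 replicate 5. Gmds, an enzyme of GDP-fucose synthesis, and Mrpl46, a mitochondrial ribosomal protein, were also higher at day 3, by 0.68 (SE 0.22) and 0.71 (SE 0.24). Ankrd33b had 3.12, 2.8 and 2.05 CPM at day 1 and 0.575, 0.393 and 1.14 CPM at day 3 (log2 fold change −1.91, SE 0.57, unadjusted p = 0.00256), and Dgkg, a diacylglycerol kinase, 5.52, 1.3 and 5.93 CPM and 0.828, 0.954 and 1.19 CPM (log2 fold change −2.10, SE 0.67, unadjusted p = 0.00427). Rbfox1, a splicing factor of muscle and neurons, had 2.66, 3.61 and 0.225 CPM at day 1 and 0, 0 and 0.0761 CPM at day 3, too few counts for a fold.

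The change with time was then set against that of IgG and untreated tumors, which asks whether it differed with anti-PD-1. By an interaction term in the same fit, no gene passed an adjusted p of 0.05 at day 1 or day 3 against either control (percent called 0 in each of the 4), and the smallest adjusted p was above 0.99 in all 4. At an unadjusted p under 0.05 against IgG, 657 genes (2.45%) had a more positive and 499 (1.86%) a more negative change at day 1, and 555 (2.07%) and 261 (0.972%) at day 3. Against untreated tumors the counts were 379 (1.41%) and 558 (2.08%) at day 1, and 277 (1.03%) and 848 (3.16%) at day 3. Single tumors moved 7 of these 8 counts by more than 1.5 times. Against IgG at day 1 the 657 became 400 without anti-PD-1 day 1 replicate 2, and the 499 became 996 without IgG 6 h replicate 1, 329 without anti-PD-1 6 h replicate 5 and 325 without IgG 6 h replicate 6. Against IgG at day 3 the 555 became 322 without anti-PD-1 day 3 replicate 4 and 367 without IgG day 3 replicate 3, and the 261 became 521 without IgG 6 h replicate 1. Against untreated tumors the 558 became 339 without untreated day 1 replicate 3, the 277 became 154 without anti-PD-1 day 3 replicate 4, and the 848 became 450 without untreated day 3 replicate 4. DESeq2 called 4 genes with a more positive and 7 with a more negative change at day 3 against IgG and 0 at day 1, and against untreated tumors 3 and 7 at day 1 and 0 and 22 at day 3. The control arms had no called gene over time themselves. IgG tumors had 1371 (5.11%) higher and 1368 (5.1%) lower genes at an unadjusted p under 0.05 at day 1, more than anti-PD-1 tumors, and untreated tumors had 558 (2.08%) and 282 (1.05%). At day 3 these counts were 395 (1.47%) and 747 (2.78%) with IgG and 540 (2.01%) and 163 (0.607%) without treatment.

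**Figure D5:**
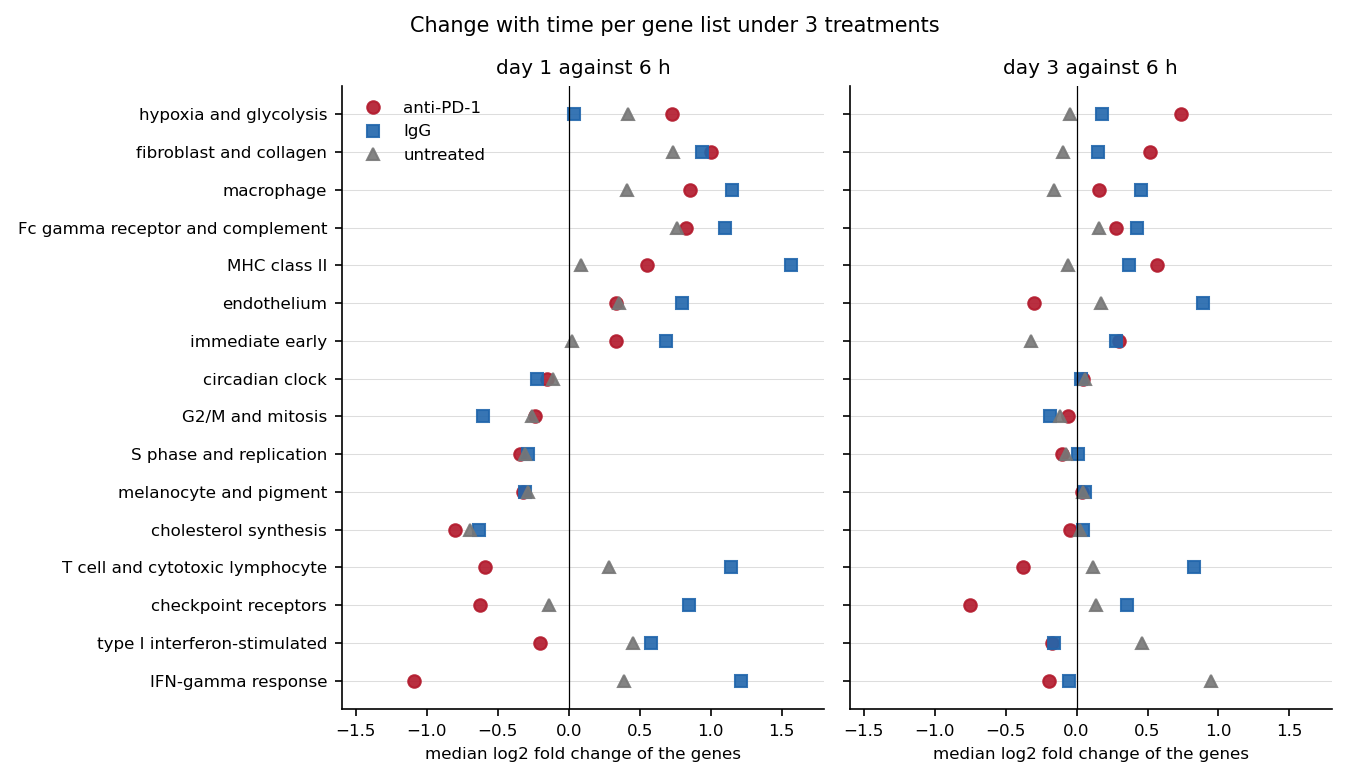
Median log2 fold change of gene lists at day 1 and day 3 against 6 h in anti-PD-1, IgG and untreated tumors, with 1 point per list and treatment (red circles, blue squares and grey triangles). At day 1 the IFN-γ response lay at −1.09 with anti-PD-1, 1.21 with IgG and 0.39 untreated, while cholesterol synthesis lay between −0.80 and −0.64 in all 3.

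Several lists had medians of one sign in all 3 arms at day 1. Cholesterol synthesis had −0.80 with anti-PD-1, −0.64 with IgG and −0.69 in untreated tumors, the melanocyte list −0.32, −0.31 and −0.29, and the fibroblast list 1.01, 0.94 and 0.73. The IFN-γ response list had medians of opposite sign, with −1.09, 1.21 and 0.39, and 13 of its 28 genes had an unadjusted p under 0.05 for a more negative change than with IgG (1.86% of all genes). The median of the difference was −2.27 against IgG and −1.40 against untreated tumors. By tumor, the list in the IgG arm stood at 6.14, 3.80 and 3.95 at 6 h and 4.72, 7.59 and 4.63 at day 1, and its highest tumor was day 1 replicate 4, in which Cdh5 was only 10.2 CPM. Irf1 had 117, 25.3 and 15.7 CPM at 6 h and 39.1, 374 and 33.5 CPM at day 1 with IgG, and 41.2, 23.1 and 19.7 CPM and 43.5, 41.4 and 28.6 CPM without treatment. The T cell list had a median difference of −1.85 against IgG at day 1 and −0.95 against untreated tumors. By tumor, its mean log2 level was 1.62, 0.70 and 2.32 at 6 h and 0.72, 1.60 and 0.96 at day 1 with anti-PD-1. With IgG it was 1.75, 0.96 and 0.83 at 6 h and 1.43, 2.97 and 1.99 at day 1, and the highest tumor was again day 1 replicate 4. The hypoxia list had medians of 0.73, 0.04 and 0.42 at day 1 in the 3 arms and 0.74, 0.18 and −0.05 at day 3. With IgG its mean log2 level was 6.96, 7.85 and 7.34 at 6 h and 7.69, 8.01 and 6.16 at day 1, the last in replicate 6. With anti-PD-1 it was 6.56, 7.43 and 7.12 at 6 h and 7.96, 7.64 and 7.65 at day 1, so the arms overlapped at day 1. Vegfa had 217, 553 and 687 CPM at 6 h, 578, 699 and 145 CPM at day 1 and 579, 359 and 368 CPM at day 3 with IgG, and 603, 289.9 and 252 CPM, 827, 328 and 777 CPM and 267, 299 and 384 CPM without treatment. The anti-PD-1 tumors at 6 h thus included the lowest Vegfa level of the 9 tumors at that time.

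Among genes named for a difference in time course, Zfp930, a zinc finger gene, had 4.01, 3.89 and 5.46 CPM at 6 h and 6.85, 6.29 and 6.76 CPM at day 1 with anti-PD-1, and 6.75, 6.8 and 15.5 CPM and 5.01, 3.92 and 3.98 CPM with IgG (difference of log2 changes 1.74, SE 0.45, unadjusted p = 0.000646). Usp28, a deubiquitinase, and Arrdc3, an arrestin-domain protein, had differences of 0.88 (SE 0.27) and 0.76 (SE 0.24) in the same direction. Ripk2, a kinase of innate immune signalling, had 23.4, 21.6 and 32.6 CPM and 17, 19.1 and 19.2 CPM with anti-PD-1 and 25, 14.7 and 15.2 CPM and 17.7, 47 and 19.1 CPM with IgG (−1.10, SE 0.38), a difference of −0.50 without IgG day 1 replicate 4. The nucleotide-cleaning hydrolase gene Nudt1 had −1.46 (SE 0.54). At day 3 against IgG, Tiprl, a regulator of type 2A phosphatases, had 0.74 (SE 0.22), Ing2, a reader of histone marks, 1.16 (SE 0.36), Usp28 0.80 (SE 0.27), Pusl1 −0.96 (SE 0.38) and the small GTPase gene Rhof −2.35 (SE 0.83). Usp28 had 17.6, 17.9 and 29 CPM in the IgG tumors at 6 h, and replicate 6 was the highest of them. Without it the day 3 difference for Usp28 was 0.52.

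Against untreated tumors, Klhl26 had a difference of 1.06 at day 1 (SE 0.31), with 13.4, 12.1 and 14.8 CPM at 6 h and 11.3, 11 and 12 CPM at day 1 in the untreated arm. Ap5s1, a subunit of the adaptor complex AP-5, had 1.01 (SE 0.32). At day 3 Dusp1 had 53.7, 43.4 and 45.5 CPM at 6 h and 22.8, 35 and 33.7 CPM at day 3 in untreated tumors, opposite to the anti-PD-1 tumors (difference of log2 changes 1.39, SE 0.36, unadjusted p = 0.000646). Sik1, a salt-inducible kinase, had 1.02 (SE 0.28) and Ndufa4l2 1.67 (SE 0.60), which was 0.85 without anti-PD-1 day 3 replicate 4. The remaining genes that the rule named on the lower side were Fam83c, S100a3 and Tgm3 at day 1 and Smyd1, Alpk2, S100a3 and Tenm2 at day 3, and each but Smyd1 were highest in 6 h replicate 5. None of these differences passed the test.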

How the data were processed

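RNA of whole tumors was sequenced on a NovaSeq as strand-specific NuGEN libraries. The deposited table holds counts per gene as the authors made them. The submitters' processing notes name cutadapt 1.8.1, STAR 2.7.7a, RSEM 1.3.0 and mm10, the methods state RSEM, and the table's file name points to featureCounts instead, so the counting tool is not settled. All values were whole numbers, and all 55450 gene identifiers matched GENCODE vM21. Reads shared by near-identical genes may have been split or dropped.

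From these counts, edgeR 4.0.16 (R 4.3.3, limma 3.58.1) was run on 30 WT libraries of 10 conditions with TMM factors, a minimum count of 10 in filterByExpr, a quasi-likelihood F-test with 20 residual degrees of freedom and Benjamini-Hochberg adjustment over 26848 genes at a threshold of 0.05. Alternatives were the Wald test of DESeq2 1.42.0, DESeq2 size factors, no filter, only the groups compared, replicate number as a block, a covariate for the receptor background (2015 sensory receptor genes), and each tumor of the compared groups left out in turn. The untreated tumors at 0 h were in the fit and were not left out. The script was tested on simulated data. Levels are TMM-adjusted CPM, and list levels are means of log2(CPM + 0.5). Figures were drawn with matplotlib 3.10.9 in Python 3.11.15. Promoter sequences came from RefSeq tables (GRCm38.p6), gene positions from GENCODE vM21.

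Groups followed the sample titles. Members and lists were chosen with earlier results of these data known. Genes were named by rule. For day 1 and day 3 against 6 h these were the 8 protein-coding genes per direction with the smallest unadjusted p, at least 1 CPM on average and no overlap, since no gene passed the threshold. For the other comparisons they were 3 per direction, to which a fixed set of 12 immune genes and the 3 most abundant members of each list were added. Some genes that the rule gives are not reported here. Genes added after their values were seen are marked, and these are Npas2, Arntl, Hlf, Vegfa, Car9, Slc2a1, Tchh, Cdh5, Gbp2, Hmgcs1, Mitf, Mlana, Pgk1, Fcgr3, Ptprc and Hmox1. Each group has 3 tumors with separate replicate numbers in the titles, taken as separate mice. The p-values set a difference against the spread between tumors within groups, which was estimated from all 30 libraries.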

Additional observations from a re-analysis of the deposited data

Results flagged for a closer look

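For 9 named genes, 13 differences were marked because all anti-PD-1 tumors lay on one side of their 6 h tumors and all control tumors on the other side of theirs. The interaction term of edgeR tested each, and its adjusted p was above 0.99 in every case. The genes were named for small p-values in these comparisons or in related ones that share tumors with them, so the marks are not independent of the choice.

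Against IgG, the difference of log2 changes was 1.74 for Zfp930 and 0.76 for Arrdc3 at day 1. At day 3 it was 0.68 for Arrdc3, 0.74 for Tiprl, a regulator of type 2A phosphatases, −0.96 for Pusl1 and −2.35 for Rhof. Against untreated tumors at day 1 it was 1.06 for Klhl26, 1.18 for Zfp930, 1.01 for Ap5s1 and −1.77 for Rhof. At day 3 it was −0.46 for Nsrp1, 1.39 for Dusp1 and 0.49 for Arrdc3.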

How the results depend on the processing

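Every count of genes past the adjusted threshold was 0 in edgeR, and it stayed at 0 with DESeq2 size factors, with only the compared groups in the fit, with the receptor covariate and with each tumor of the compared groups left out in turn (lowest 0, highest 0). Without the filter, edgeR called 2 genes higher and 46 lower at day 1 and 3 and 134 at day 3 against 6 h, 2 with a more negative change at day 1 against IgG, 13 at day 1 against untreated tumors, and 1 more positive and 14 more negative at day 3 against untreated tumors. DESeq2 called 1 and 2 at day 1, 2 and 29 at day 3, 2 and 15 for day 3 against day 1, 4 and 7 for day 3 against IgG, 3 and 7 for day 1 against untreated tumors and 22 more negative at day 3 against untreated tumors. The cause was not tested. Of the DESeq2 calls, 2 of 3 at day 1 and 19 of 31 at day 3 were highest in 6 h replicate 5.

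Deviations from group means of the 5 same-numbered pairs correlated at −0.36 to 0.14, with 1 pair over 0.1. So few pairs cannot settle whether replicate numbers pair the tumors, and the main fit did not pair them. With replicate number as a block every count stayed at 0, and the sign turned for Eno1 at day 1 (−0.075) and Ttn at day 1 (0.19). Irf1 at day 3 turned to 0.46 without 6 h replicate 5 and 0.046 without day 3 replicate 5, within a leave-one-out range of −1.44 to 0.46. Without 6 h replicate 5, Tchh turned to 0.97 at day 1 and 0.015 at day 3 and Krt71 to 1.75 at day 1, within leave-one-out ranges of −9.34 to 0.97, −11.1 to 0.015 and −11.6 to 1.75, and the receptor covariate put Krt71 at −12.4. With 3 tumors per group and a coefficient of variation of 0.671, differences near the standard errors given could not be detected.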

Other observations

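Stromal and metabolic lists outside the comparisons above also differed between tumors, and none of their genes passed the adjusted threshold. For adipocyte genes the median log2 change was 1.10 at day 1, with 10 of 11 above 0 (52.8% of all genes) and 4 of 11 without overlap (6.27% of all genes). This median was 0.52 without day 1 replicate 5 and 0.25 with the receptor covariate. Lpl, the lipase that releases fatty acids from lipoproteins, had 79.3, 68.3 and 106 CPM at 6 h, 114, 129 and 325 CPM at day 1 and 82.5, 256 and 69.7 CPM at day 3. Fabp4, a fatty acid carrier of fat cells, had 34.9, 27.7 and 29 CPM, 43.7, 33 and 58.8 CPM and 27.4, 0.365 and 34 CPM. Day 1 replicate 5 held the highest level for 9 of 11 adipocyte genes, and day 3 replicate 4 the lowest for 9 of 11. Dendritic cell genes were above 0 in 10 of 10 at day 1 (52.8% of all genes), with a median of 0.51 that was 0.28 without day 1 replicate 5. Fscn1, an actin bundler of mature dendritic cells, had 205, 184 and 154 CPM at 6 h and 184, 219.6 and 145 CPM at day 1. At both times Fscn1 was lowest in replicate 5, where the list's mean log2 level was highest (2.37 at 6 h and 2.66 at day 1).

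Genes encoded by mitochondrial DNA had a median of −0.63 at day 1, with 9 of 13 below 0 (45.6% of all genes) and 5 of 13 without overlap (3.02% of all genes). The median was −0.40 without day 1 replicate 5. mt-Cytb, cytochrome b, had 17244, 18174 and 11939.9 CPM at 6 h, 10587, 11714 and 7120.1 CPM at day 1 and 13075, 8996 and 15874 CPM at day 3. Respiratory chain genes of the nucleus had a median of −0.24 at day 1, with 12 of 14 below 0 (45.6% of all genes). Leaving out 1 tumor gave −0.47 (day 1 replicate 4) to −0.14 (6 h replicate 1). At day 3 all 16 ribosomal protein genes were above 0 (50.6% of all genes), with a median of 0.13 and 5 of 16 without overlap (5.83% of all genes). Of the targets of NRF2, a transcription factor of the oxidative stress response, 3 of 11 were higher at day 3 with an unadjusted p under 0.05 (1.42% of all genes). Hmox1, the heme oxygenase among them, had 49.6, 94 and 60.1 CPM at 6 h, 101, 88.8 and 110.2 CPM at day 1 and 87.4, 131 and 171 CPM at day 3, and Gstm1, a glutathione transferase, had 107, 105 and 96.9 CPM, 107, 134 and 145 CPM and 118, 181 and 137 CPM. Hmox1 was named after its values were seen.

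Low endothelial RNA was seen in 1 library of each arm. Cdh5 had 112, 0.617 and 143 CPM at day 3 of anti-PD-1, 311, 10.2 and 124 CPM in the IgG tumors of day 1 and 168, 212 and 22.5 CPM in the untreated tumors of day 1. Vegfa had 351, 879.6 and 268 CPM, 578, 699 and 145 CPM and 827, 328 and 777 CPM in the same tumors, in the same order. In each arm the tumor with the lowest Cdh5 of these 3 was day 3 replicate 4, day 1 replicate 4 and day 1 replicate 6. No relation between the 2 genes was tested.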
